A study of Mus musculus with 16 samples.

Results

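Liver from diet-induced obese mice treated with halofuginone was compared with liver from obese mice given vehicle. All liver libraries of the series were used, 5 a group, which are 10 of its 16 libraries, and 12311 of the 22322 genes in the liver table had enough counts to be tested. Poly(A)-selected RNA was sequenced after 8 weeks of treatment, and the other 6 libraries, of white adipose tissue, were not used here. Both groups were obese mice. The vehicle group (labelled HFD) received vehicle, and the other group (labelled H100) received halofuginone at 100 μg/kg by intraperitoneal injection every 2 days. The labels give no strain, sex or age, and no lean group entered the comparison. They do not state that each library came from a separate animal either, so the p-values measure the spread between these samples. Libraries are written V1 to V5 (vehicle replicates) and H1 to H5 (halofuginone replicates).

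Halofuginone inhibits prolyl-tRNA synthetase, so that uncharged tRNA accumulates and cells mount an amino acid starvation response. The liver is the organ that oxidises and conjugates foreign compounds, makes bile acids and most plasma proteins, disposes of nitrogen as urea and buffers blood glucose, and much of this is controlled by nuclear receptors, by growth hormone and by cytokines. The genes described here are those of these functions, together with ribosome, chaperone, respiratory chain and interferon genes. They were grouped in 35 lists outside the amino acid response, the collagens and lipid metabolism.

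Levels are given in CPM, the count as a part of the TMM-scaled library total, with 1000000 CPM for the whole. A gene was called when edgeR's quasi-likelihood test gave a Benjamini-Hochberg adjusted p under 0.05 over all genes tested. By this rule 1558 genes were higher under halofuginone, 12.7% of those tested, and 1292 were lower, 10.5%. The median log2 fold change over all genes was 0.02. Scaling by library size alone would shift that median to 0.17 and the calls to 2789 higher and 838 lower, so all changes are relative to the TMM scaling. The totals ran from 20309956 to 31980683 counts, and a count of 0 allows up to 3 counts, or 0.0983 to 0.1503 CPM, which covers counting error only.

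One halofuginone library, H1, stood apart. On the first principal component, with 60.6% of the variance, it lay at −20.7, beside the vehicle libraries (−29.6 to −22.7) and away from H2 to H5 (24.9 to 49.2). Of the 1558 genes called higher, H1 exceeded every vehicle library in 646 (41.5%), against 1507 to 1544 in H2 to H5. Of the 1292 called lower, H1 was under every vehicle library in 854 (66.1%), against 1215 to 1266 in the others. Without H1 the calls numbered 5312 (2628 higher, 2684 lower) and included 2838 of the original 2850 with the same sign. Without H3 they numbered 1275. The labels put H1 in the treated group and it was kept there. Values without it stand beside many of the results. H1 was singled out from these same values, and leaving out the treated library nearest to vehicle tends to widen the differences. Adjusted p-values without H1 are therefore descriptions and not separate support.

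The tissue was liver by its markers. The 8 hepatocyte markers, among them the albumin gene Alb, summed to 115093 to 132334 CPM in vehicle and 42551 to 108583 CPM under halofuginone, with the highest treated sum in H1. Alb made up most of each sum, so the sum and Alb are not separate observations. Of the 8 markers 1 was called higher, Tat, and 2 lower, Ttr and Hnf4a. Alb itself was at 94515, 85298, 98802, 97185 and 94969.7 CPM in V1 to V5 and 80505, 32675, 26739, 62299 and 56687 CPM in H1 to H5, so all 5 treated libraries lay below all vehicle libraries, but it was not called (log2 fold change −0.86, edgeR adjusted p 0.0742, and −1.10 with an adjusted p of 0.0134 without H1). In bulk tissue, fewer cells of a type and less RNA per cell cannot be told apart.

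**Figure D1:**
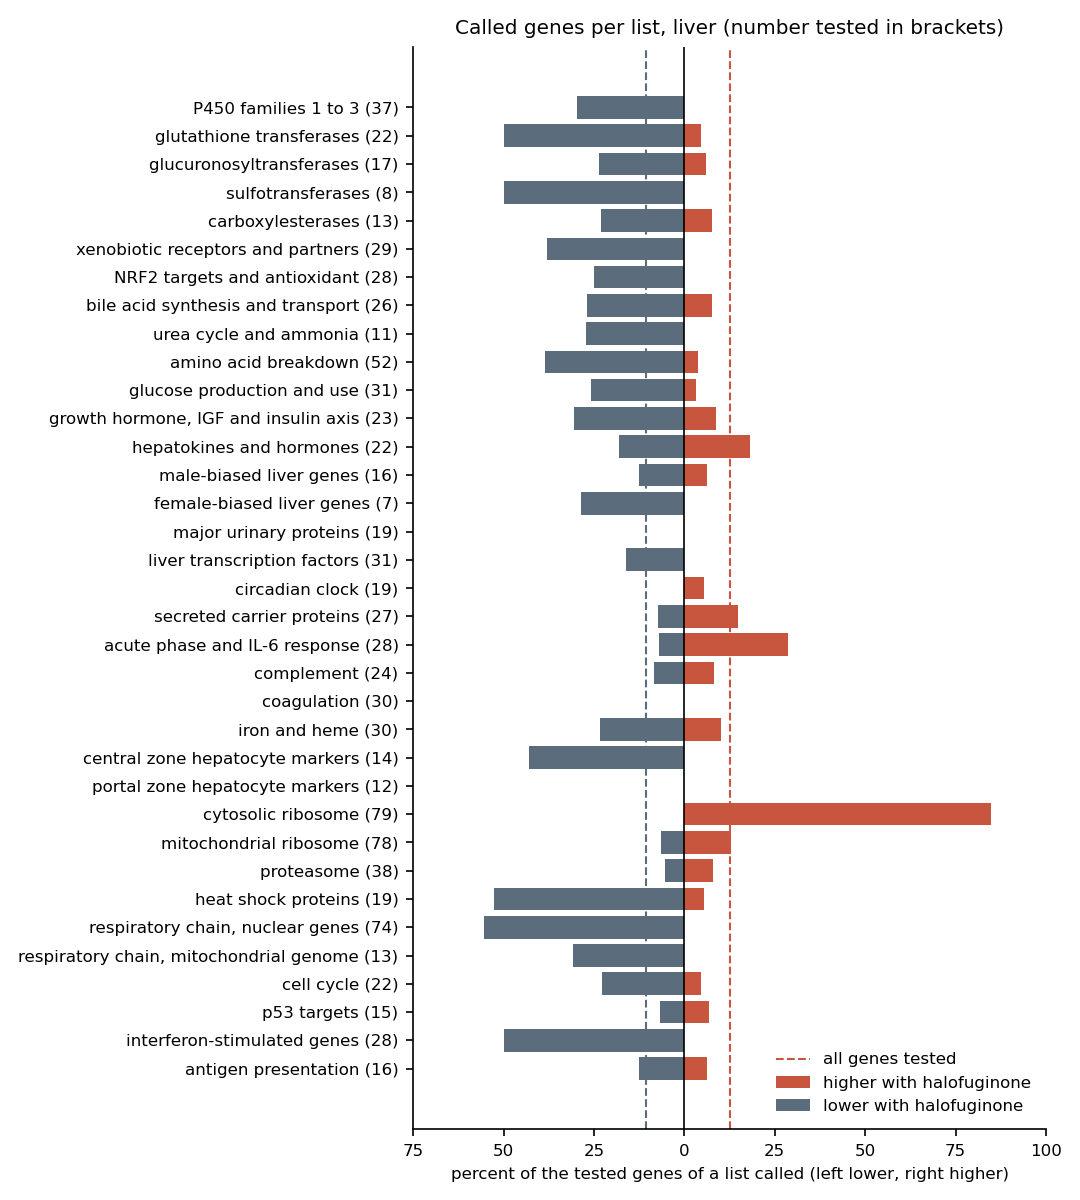
Percent of the tested genes of each of 35 lists that were called lower (left, grey) or higher (right, red) under halofuginone; brackets give the number tested and dashed lines the shares over all 12311 genes (10.5% lower, 12.7% higher). The cytosolic ribosome stands out to the right. The nuclear respiratory chain, heat shock, interferon, glutathione transferase and sulfotransferase lists reach 50% or more to the left.

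Called genes were ranked by log2 fold change where their groups did not overlap and the higher mean was 5 CPM or more. Set aside were 415 listed genes of the amino acid response, tRNA charging, collagens, lipids and a few others. Genes of those pathways that were not listed could remain, as the cholesterol carrier Npc1 did. Whether other rises, such as Gtpbp2 and Pck2, belong to the amino acid response was not tested. The 12 largest rises in this ranking were in a receptor, a cytoskeletal regulator and several membrane and mitochondrial proteins. Lepr (ENSMUSG00000057722), the leptin receptor, was at 4.99, 3.91, 6.48, 3.55 and 4.29 CPM in V1 to V5 and 18.1, 39.9, 36.5, 60.1 and 51.3 CPM in H1 to H5 (log2 fold change 3.15, SE 0.30, edgeR adjusted p 4.21e-04). Every halofuginone library lay above every vehicle library, and H1 was the lowest of the treated ones. Arhgef2 (ENSMUSG00000028059), a microtubule-bound activator of the small GTPase RhoA, was at 5.31, 4.66, 5.78, 6.24 and 5.51 CPM in V1 to V5 and 6.66, 59.5, 47.2, 48.04 and 52.9 CPM in H1 to H5 (log2 fold change 2.96, SE 0.44, edgeR adjusted p 0.00374). Here H1 barely left the vehicle range while H2 to H5 were far above it. Npc1 (ENSMUSG00000024413), which carries cholesterol out of lysosomes, was at 113, 132, 94.6, 114 and 125 CPM in V1 to V5 and 197, 338, 587, 330.3 and 447 CPM in H1 to H5 (log2 fold change 1.72, SE 0.25, edgeR adjusted p 0.00325), with the groups again separate and H3 highest. App, the amyloid precursor protein gene, was at 86.2, 84.2, 76.5, 90.5 and 83.6 CPM in V1 to V5 and 91.6, 259.8, 288, 306 and 379 CPM in H1 to H5 (log2 fold change 1.65, SE 0.29, edgeR adjusted p 0.00611).

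The other 8 of these 12 rises had log2 fold changes between 1.63 and 2.06. Among them were Gtpbp2 (2.06), a ribosome rescue factor, the centriole gene Sclt1 (1.94), Cgref1 (1.91), Ank (1.87), which exports pyrophosphate and citrate, Kyat1 (1.84), a kynurenine aminotransferase, Pck2 (1.83), the mitochondrial phosphoenolpyruvate carboxykinase, and the redox sensor gene Nmral1 (1.63). By the naming rule the groups do not overlap in any of the 12. In the 11 named here H1 was the lowest treated library, and all 11 were called in each of the 10 fits that left out 1 library.

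By the same ranking the largest falls took in galectin-1, an inducible chaperone, contractile and transport proteins, and detoxifying enzymes. Lgals1 (ENSMUSG00000068220), the galectin-1 gene, was at 34.7, 43.9, 30.8, 62.4 and 38.2 CPM in V1 to V5 and 6.95, 4.29, 5.19, 4.94 and 4.24 CPM in H1 to H5 (log2 fold change −3.04, SE 0.21, edgeR adjusted p 9.41e-05). All treated libraries, H1 included, lay far below the lowest vehicle library. Tpm2 (ENSMUSG00000028464), which encodes the actin-binding β-tropomyosin of contractile cells, was at 12.8, 12.3, 15.4, 15.8 and 14.9 CPM in V1 to V5 and 5.46, 1.68, 1.43, 2.01 and 1.38 CPM in H1 to H5 (log2 fold change −2.61, SE 0.34, edgeR adjusted p 0.00268), with no overlap and with H1 above the other 4 treated libraries. Slc10a2 (ENSMUSG00000023073), the sodium-dependent bile acid transporter, was at 72.1, 49.7, 78.2, 36.2 and 41.4 CPM in V1 to V5 and 12.4, 11.9, 5.47, 4.51 and 8.82 CPM in H1 to H5 (log2 fold change −2.69, SE 0.32, edgeR adjusted p 0.00155), and H1 and H2 were the highest of 5 low values.

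Serpinb1a, an inhibitor of neutrophil proteases, was at 10.6, 8.72, 5.41, 8.92 and 9.41 CPM in V1 to V5 and 4.82, 0.298, 0.394, 0.270 and 0.261 CPM in H1 to H5 (log2 fold change −2.93, SE 0.73, edgeR adjusted p 0.0188, and −4.81 without H1). The 4 libraries H2 to H5 were at a small part of the vehicle level, H1 was just under the vehicle range, and the call was lost without H3 (adjusted p 0.0515). Car14, a membrane carbonic anhydrase, was at 45.1, 39.1, 25.96, 40.8 and 45.8 CPM in V1 to V5 and 19.7, 1.86, 2.72, 8.45 and 3.46 CPM in H1 to H5 (log2 fold change −2.46, SE 0.55, edgeR adjusted p 0.0131, and −3.28 without H1). Slc44a3 (−2.51), a choline transporter-like gene, Slc22a27 (−2.48), an organic anion transporter, Raet1d (−2.49), a ligand of the natural killer receptor NKG2D, and H2-Q1 (−2.48), a nonclassical class I gene, also fell. Raet1d and H2-Q1 have near-identical neighbours, between which the authors' counting may have split reads. Hspa1b, Gsta2 and Cyp3a11, the other members of the 12, are described with their lists.

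**Figure D2:**
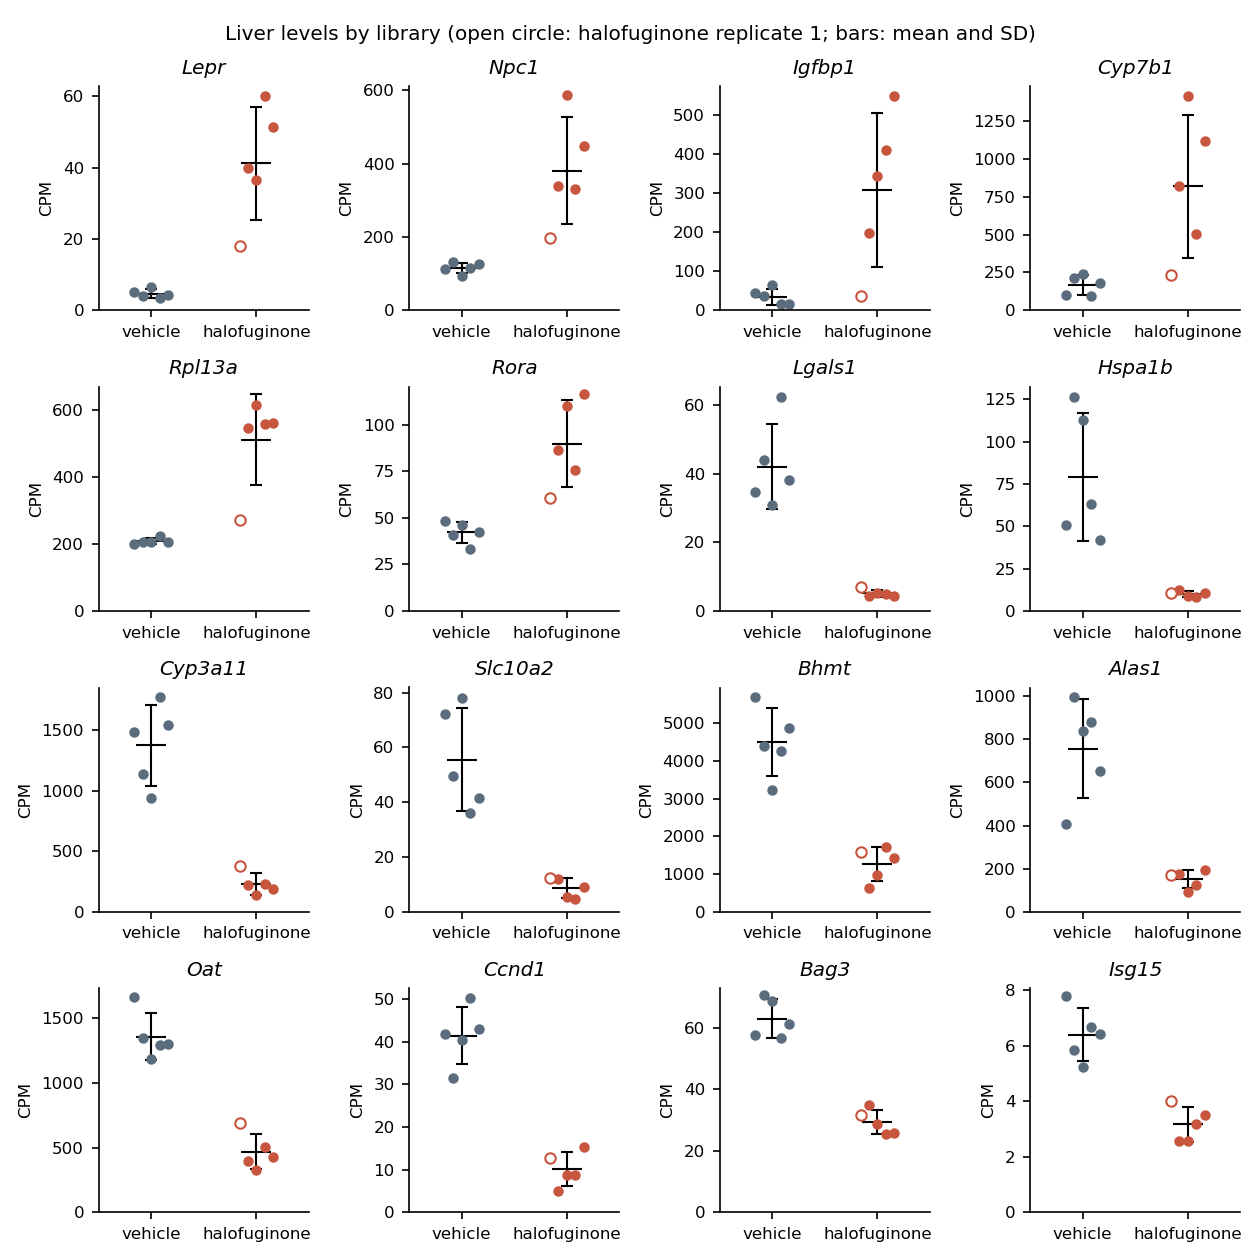
CPM of 16 genes in each library, on linear axes, with mean and SD per group (5 libraries each); the open circle is H1. In Lgals1, Hspa1b, Alas1 and Bag3 the open circle sits with the other treated libraries, and in Igfbp1 and Cyp7b1 it sits with the vehicle libraries.

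The first step of drug metabolism in liver is oxidation by cytochrome P450 enzymes, whose genes of families 1 to 3 are driven by receptors that sense foreign compounds. Of 37 such genes tested 11 were called, all of them lower under halofuginone, with a list median of −0.79 on the log2 scale against 0.02 over all genes. In 10 of the 37 all treated libraries lay below all vehicle libraries, which held for 6.55% of all genes. Cyp3a11 (ENSMUSG00000056035), the main drug-oxidising CYP3A enzyme of mouse liver, was at 1488, 1134, 938, 1771 and 1544 CPM in V1 to V5 and 380.02, 221, 135, 232 and 186 CPM in H1 to H5 (log2 fold change −2.58, SE 0.28, edgeR adjusted p 8.99e-04). The treated libraries, H1 included, were all under the lowest vehicle value. Cyp2c29, an epoxygenase, was at 786, 467, 518, 551 and 1346 CPM in V1 to V5 and 396, 82.4, 86.2, 141 and 89.8 CPM in H1 to H5 (log2 fold change −2.21, SE 0.49, edgeR adjusted p 0.0131, and −2.90 without H1). Its relative Cyp2c38 was at 120.2, 130.4, 92.9, 149 and 139.6 CPM in V1 to V5 and 69.7, 19.9, 9.98, 36.6 and 13.5 CPM in H1 to H5 (log2 fold change −2.08, SE 0.46, edgeR adjusted p 0.0125, and −2.68 without H1). In both, H1 was the treated library nearest to vehicle.

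Cyp2e1, the ethanol-oxidising enzyme of central hepatocytes, was at 12569.8, 14627, 11483, 11312 and 13816 CPM in V1 to V5 and 12679, 2421, 3188, 8646 and 5268 CPM in H1 to H5. H1 lay within the vehicle range and the other 4 treated libraries below it, so the gene missed the threshold (log2 fold change −0.99, edgeR adjusted p 0.0916) and passed it without H1 (−1.41, adjusted p 0.00707). Cyp1a2 had the same layout (−0.87, adjusted p 0.109, and −1.41 at 0.00104 without H1). Nr1i3, the gene of the constitutive androstane receptor, was at 116, 114, 89.8, 136 and 142 CPM in V1 to V5 and 147, 2.57, 9.91, 34.9 and 22.5 CPM in H1 to H5 (log2 fold change −1.47, edgeR adjusted p 0.178, and −2.79 without H1 at an adjusted p of 0.00243), with H1 just above the vehicle range and H2 to H5 far below it. The count of P450 genes called lower was 21 without H1, with 2 called higher, and 8 without H5 to 12 without V3 or H4 when another library was left out. Genes of the Cyp2c and Cyp3a clusters are similar in sequence, and reads may have been split between them.

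Partner enzymes of this first step were lower as well. Among 29 tested genes for xenobiotic receptors, flavin monooxygenases, aldehyde and alcohol dehydrogenases and similar enzymes 11 were called, all lower (median −0.72; 19 lower without H1). Fmo2, a flavin monooxygenase, was at 47.2, 36.9, 23.8, 42.98 and 54.8 CPM in V1 to V5 and 22.01, 5.67, 5.51, 5.79 and 14.4 CPM in H1 to H5 (log2 fold change −1.96, SE 0.40, edgeR adjusted p 0.0105). Aldh1a7, an aldehyde dehydrogenase close to Aldh1a1, was at 159.6, 195, 143, 176 and 171 CPM in V1 to V5 and 82.1, 22.7, 55.6, 46.99 and 45.98 CPM in H1 to H5 (log2 fold change −1.74, SE 0.26, edgeR adjusted p 0.00377). Both were lower in all 5 treated libraries than in any vehicle library. Fmo1 fell by 2.03 on the log2 scale (adjusted p 0.0331), a call that was lost without V1, V2, V3, V4, V5, H3, H4 or H5 (adjusted p 0.0514 to 0.0782).

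Conjugating enzymes attach glutathione, glucuronic acid or sulfate to the oxidised product. Of 22 glutathione transferase genes tested, 11 were lower and 1 higher (median −0.58), with 13 lower without H1 and 7 without H3 to 11 without V3 when another library was left out. Gsta2 was at 6.81, 4.41, 6.62, 16.6 and 5.47 CPM in V1 to V5 and 4.07, 0.224, 0.322, 1.16 and 0.633 CPM in H1 to H5 (log2 fold change −2.71, SE 0.67, edgeR adjusted p 0.0185, and −3.80 without H1). Mgst3, a microsomal transferase, was at 9.86, 7.26, 6.62, 15.98 and 10.03 CPM in V1 to V5 and 6.11, 1.34, 1.36, 2.66 and 1.75 CPM in H1 to H5 (log2 fold change −1.94, SE 0.42, edgeR adjusted p 0.0114). In each gene the treated libraries lay below the vehicle range, with H1 close under it. Gsta4, which conjugates the lipid peroxidation product 4-hydroxynonenal, was at 30.6, 20.2, 23.3, 35.4 and 23.04 CPM in V1 to V5 and 19.4, 3.32, 2.79, 5.67 and 2.42 CPM in H1 to H5 (log2 fold change −2.004, SE 0.52, edgeR adjusted p 0.0217, and −2.92 without H1), and its call was lost without H3 or H4 (adjusted p 0.0510 to 0.0547). Gstp1 was not called (log2 fold change 0.27, edgeR adjusted p 0.497). Gsta1 and Gsta2 are near-identical, and Gsta1 was at 0 to 0.232 CPM in the treated libraries, around the level that a count of 0 allows.

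Of 8 sulfotransferase genes tested 4 were called, all lower (median −1.05; 5 lower without H1 and 2 without any one of the other 9 libraries). Sult1b1, which sulfates thyroid hormones and phenols, was at 33.3, 32.7, 26.9, 32.6 and 30.9 CPM in V1 to V5 and 14.6, 4.697, 5.94, 9.26 and 8.38 CPM in H1 to H5 (log2 fold change −1.87, SE 0.25, edgeR adjusted p 0.00292), with no overlap. Sult1d1 was at 163, 127, 139, 92.7 and 134 CPM in V1 to V5 and 124, 19.01, 18.03, 38.4 and 28.9 CPM in H1 to H5 (log2 fold change −1.52, SE 0.48, edgeR adjusted p 0.0418, and −2.35 without H1). H1 lay among the vehicle libraries, and the call was lost without any one library other than H1 (adjusted p 0.0583 to 0.0960). Sult1a1 was not called (log2 fold change −0.22, edgeR adjusted p 0.269). The 17 glucuronosyltransferase genes gave 4 lower and 1 higher (median −0.51), with 13 lower without H1 and 1 to 3 without H4 when another library was left out. Ugt1a5 was at 63.5, 86.6, 26.1, 70.3 and 72.8 CPM in V1 to V5 and 18.2, 22.7, 28.9, 24.8 and 24.8 CPM in H1 to H5 (log2 fold change −1.42, SE 0.26, edgeR adjusted p 0.00727); its treated libraries were uniform and overlapped the vehicle group only through V3. Ugdh, the enzyme that makes the UDP-glucuronic acid used by this family, was at 118, 132, 143, 143 and 119 CPM in V1 to V5 and 89.3, 39.4, 39.9, 37.5 and 34.3 CPM in H1 to H5 (log2 fold change −1.45, SE 0.24, edgeR adjusted p 0.00564), lower in every treated library.

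Carboxylesterases hydrolyse ester drugs and lipids, and 2 members moved in opposite directions. Ces1g (ENSMUSG00000057074) was at 163, 174, 139, 183 and 174 CPM in V1 to V5 and 94.3, 15.1, 10.8, 29.9 and 13.9 CPM in H1 to H5 (log2 fold change −2.35, SE 0.54, edgeR adjusted p 0.0145, and −3.28 without H1), all treated libraries being lower and H1 nearest to vehicle. Ces4a was at 0.871, 3.41, 2.75, 1.27 and 4.06 CPM in V1 to V5 and 2.29, 26.6, 73.4, 47.6 and 41.7 CPM in H1 to H5 (log2 fold change 3.96, SE 0.72, edgeR adjusted p 0.00719). H2 to H5 were above every vehicle library and H1 was within the vehicle range. Of 13 members tested, 3 were lower and 1 higher (median −0.80), with 10 lower without H1. Ces1e, which fell (log2 fold change −1.78, edgeR adjusted p 0.0220, and −2.49 without H1), lost its call without H3 or H5 (adjusted p 0.0547 to 0.0565). Ces1d, a triacylglycerol hydrolase, was not called (log2 fold change −2.10, edgeR adjusted p 0.107, and −4.29 without H1 at an adjusted p of 1.74e-05), and its level was 441 CPM in H1, inside the vehicle range of 327 to 556 CPM, and 11.1, 17.9, 40.97 and 25.1 CPM in H2 to H5. Genes of this family are similar in sequence, and reads may have been split between them.

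Antioxidant genes, many of them targets of the transcription factor NRF2, were lower in part. Of 28 tested 7 were called, all lower (median −0.30; 15 lower and 3 higher without H1, and 3 to 5 without V3 or H2 when another library was left out). Cat, the peroxisomal catalase gene, was at 3063, 3255, 2771, 2987 and 3097 CPM in V1 to V5 and 2670.0, 697, 1136, 1484 and 1354 CPM in H1 to H5 (log2 fold change −1.05, SE 0.29, edgeR adjusted p 0.0274), with H1 under the vehicle range and above the other treated libraries. Gclc, the catalytic subunit of the enzyme that limits glutathione synthesis, was at 202, 257, 276, 245 and 203 CPM in V1 to V5 and 253, 83.9, 72.5, 90.8 and 71.5 CPM in H1 to H5 (log2 fold change −1.05, edgeR adjusted p 0.0418), and there H1 lay within the vehicle range, with −1.59 without it. The call of Cat was lost without V1, V2, V4, V5, H3, H4 or H5 (adjusted p 0.0516 to 0.0722) and that of Gclc without any one library other than H1 (adjusted p 0.0616 to 0.101).

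Bile acids are made from cholesterol by 2 routes, which start with the enzymes of Cyp7a1 and of Cyp27a1 followed by Cyp7b1, and the 2 enzymes moved in opposite directions. Cyp7b1 (ENSMUSG00000039519), the oxysterol 7α-hydroxylase of the alternative route, was at 103, 211, 239, 94.1 and 179.8 CPM in V1 to V5 and 235, 819.7, 1419, 507 and 1121 CPM in H1 to H5 (log2 fold change 2.31, SE 0.45, edgeR adjusted p 0.00866). H2 to H5 were all above the vehicle range and H1 was inside it. Cyp7a1 (ENSMUSG00000028240), the rate-limiting enzyme of the classical route, was at 98.9, 119.7, 32.3, 107 and 144 CPM in V1 to V5 and 61.3, 3.02, 11.1, 9.26 and 17.8 CPM in H1 to H5 (log2 fold change −2.30, SE 0.67, edgeR adjusted p 0.0321, and −3.30 without H1). Again H2 to H5 lay below every vehicle library and H1 did not, and the call was lost without V1, V2, V4, V5, H3, H4 or H5 (adjusted p 0.0552 to 0.0804). Abcc3, which exports conjugated bile acids to blood, was at 232, 299, 226, 248 and 253 CPM in V1 to V5 and 138, 40.4, 85.8, 81.3 and 69.03 CPM in H1 to H5 (log2 fold change −1.60, SE 0.26, edgeR adjusted p 0.00465), with no overlap. Nr1h4, the bile acid receptor FXR, was not called (log2 fold change 0.29, edgeR adjusted p 0.144). Over 26 tested genes of synthesis and transport, 7 were lower and 2 higher (median −0.31), with 13 lower without H1 and 1 to 4 without V3 or H2 when another library was left out.

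Genes that break down amino acids were lower in a large share. Of 52 tested, 20 were lower and 2 higher (median −0.42), and the count of lower genes was 29 without H1 and ran from 8 without H3 to 23 without H4 when another library was left out. Bhmt (ENSMUSG00000074768), which remethylates homocysteine from betaine, was at 5692, 4400.1, 3216, 4272 and 4883 CPM in V1 to V5 and 1579.7, 637, 974, 1714 and 1415 CPM in H1 to H5 (log2 fold change −1.83, SE 0.28, edgeR adjusted p 0.00374). All treated libraries, H1 included, lay below all vehicle libraries. Oat, the ornithine aminotransferase gene, was at 1666, 1349, 1189, 1291 and 1303 CPM in V1 to V5 and 689, 396, 330.3, 505 and 432 CPM in H1 to H5 (log2 fold change −1.53, SE 0.20, edgeR adjusted p 0.00268), with the same separation. Tat, the tyrosine aminotransferase gene and a classical target of glucocorticoids, went the other way at 1018, 471, 473, 552 and 798 CPM in V1 to V5 and 900.1, 1975, 2347, 2549 and 2722 CPM in H1 to H5 (log2 fold change 1.66, SE 0.32, edgeR adjusted p 0.00827); H2 to H5 were above every vehicle library and H1 was among them. Hpd, the next enzyme of tyrosine breakdown, was not called (log2 fold change −0.43, edgeR adjusted p 0.1999).

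Ammonia is detoxified by the urea cycle in periportal hepatocytes and by glutamine synthetase in the cells around the central vein. Glul, the glutamine synthetase gene, was at 1218, 1106, 1101, 1011 and 1192 CPM in V1 to V5 and 839.6, 498, 331, 452 and 415 CPM in H1 to H5 (log2 fold change −1.15, SE 0.22, edgeR adjusted p 0.00865). Glud1, the mitochondrial glutamate dehydrogenase gene, was at 1179, 1065, 1070.2, 1049.9 and 1169.7 CPM in V1 to V5 and 901, 476, 452, 667 and 492 CPM in H1 to H5 (log2 fold change −0.89, SE 0.19, edgeR adjusted p 0.0125). Both were lower in every treated library than in any vehicle library. Otc, the ornithine transcarbamylase of the urea cycle, was at 321, 339, 312, 332 and 330.3 CPM in V1 to V5 and 325, 67.3, 56.1, 129 and 85.2 CPM in H1 to H5 (log2 fold change −1.30, edgeR adjusted p 0.0429, and −1.97 without H1). H1 matched the vehicle libraries and the call was lost without any one library other than H1 (adjusted p 0.0711 to 0.0987). The urea cycle and ammonia list gave 3 called genes of 11, all lower (median −0.47; 5 lower without H1).

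Central and portal hepatocyte genes did not give the same counts. Of 14 markers of the zone around the central vein 6 were called, all lower (median −0.89), and in 6 all treated libraries lay below the vehicle group. Over all genes tested 10.5% were called lower, and in 6.55% all treated libraries lay below. The count of lower central markers was 9 without H1 and 4 without H3. Of 12 portal markers 0 were called by edgeR (median −0.02), with 1 higher and 0 lower at an unadjusted p under 0.05, DESeq2 called 0 higher and 0 lower, and limma on log2 FPKM 1 and 0, and 2 were called lower without H1. Rgn, a calcium-binding lactonase of central hepatocytes, was at 818, 848, 797, 754 and 846 CPM in V1 to V5 and 609, 229, 239, 394 and 305 CPM in H1 to H5 (log2 fold change −1.19, SE 0.25, edgeR adjusted p 0.0105), without overlap. Among portal genes Cyp2f2 (log2 fold change −0.81, edgeR adjusted p 0.184) and Hal (0.53, adjusted p 0.172) were not called. The difference between the 2 zones was not tested.

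Among genes of glucose handling, 2 regulators of glycolysis fell. They were Pfkfb3 (−2.04) and Pfkfb1 (−1.02), of the enzyme family that makes and breaks down the fructose 2,6-bisphosphate that drives glycolysis. Pfkfb3 varied widely in vehicle (13.5 to 88.2 CPM against 8.09 to 14.95 CPM). The gluconeogenic genes Pck1 (log2 fold change 0.25, edgeR adjusted p 0.398) and G6pc (0.29, adjusted p 0.435) were not called. Of 31 genes tested, 8 were lower and 1 higher (median −0.35; 12 lower without H1, and 5 without H3 or H5 to 6 when another library was left out). The higher gene was Slc2a1 (0.54), a glucose transporter of most cell types.

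Growth hormone acts on hepatocytes through its receptor and STAT5 to drive Igf1, Socs2 and sex-biased genes, while insulin represses Igfbp1. Igfbp1 (ENSMUSG00000020429), a binding protein for insulin-like growth factors, was at 43.4, 35.8, 63.3, 14.6 and 14.7 CPM in V1 to V5 and 37.5, 198, 345, 412 and 549 CPM in H1 to H5 (log2 fold change 3.17, SE 0.64, edgeR adjusted p 0.0101). H2 to H5 were above every vehicle library, and H1 lay within the vehicle range. Socs2, a feedback inhibitor of growth hormone signalling, was at 6.61, 61.7, 40.97, 19.8 and 17.9 CPM in V1 to V5 and 13.2, 3.28, 2.08, 8.72 and 6.14 CPM in H1 to H5 (log2 fold change −2.15, SE 0.60, edgeR adjusted p 0.0278). V1 was as low as the treated libraries, and the call was lost without V2, V3, H2, H3, H4 or H5 (adjusted p 0.0503 to 0.0714). Prlr, the prolactin receptor, was at 209, 119.8, 134, 137 and 176 CPM in V1 to V5 and 95.3, 47.4, 36.3, 67.6 and 52.8 CPM in H1 to H5 (log2 fold change −1.37, SE 0.25, edgeR adjusted p 0.00704), lower in all treated libraries.

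Ghr, the growth hormone receptor gene, was at 347, 346, 335, 338 and 376 CPM in V1 to V5 and 319, 137, 205, 156 and 161 CPM in H1 to H5 (log2 fold change −0.83, SE 0.21, edgeR adjusted p 0.0191). Igf1, its main target in liver, was at 416, 441, 444, 364 and 423 CPM in V1 to V5 and 366, 329, 292, 337 and 280.5 CPM in H1 to H5 (log2 fold change −0.38, SE 0.12, edgeR adjusted p 0.0365). In Ghr every treated library lay below the vehicle group, and in Igf1 H1 overlapped V4. The call of Ghr was lost without H5 (adjusted p 0.0511) and that of Igf1 without V1, V2, V3, V5, H2, H3, H4 or H5 (adjusted p 0.0503 to 0.0979). The whole axis gave 7 lower and 2 higher of 23 (median −0.28), with 11 lower without H1 and 1 without H5 to 4 without V1, V4 or V5 when another library was left out.

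Sex-biased genes, which follow the pattern of growth hormone release, gave small counts in a set of libraries whose sex the labels do not state. Among 16 male-biased genes 2 were lower and 1 higher (median −0.28; 5 lower without H1, and 0 to 1 without V1, V4, H2 or H4 when another library was left out). This was 12.5% lower and 6.2% higher, against 10.5% and 12.7% over all genes tested. The higher one was Cyp7b1, and the lower ones were Cyp2d9 (−1.08) and Elovl3 (−1.07), whose calls were lost without V2, V3, V4, V5, H3 or H5 (adjusted p 0.0527 to 0.0797) and without V1, V2, V3, V5, H2, H3, H4 or H5 (adjusted p 0.0526 to 0.0718). Of 18 female-biased genes 7 passed the count filter, 2 of them lower, among them Prlr (median −1.57; 5 lower without H1, and 2 to 4 without V3 or H4 when another library was left out). Cyp2b9, a female-biased P450, was at 182, 60.8, 29.9, 147 and 135 CPM in V1 to V5 and 23.6, 16.1, 28.4, 91.7 and 21.9 CPM in H1 to H5 and was not called (log2 fold change −1.61, edgeR adjusted p 0.0553).

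Of 19 genes for major urinary proteins, the abundant secreted pheromone carriers of male liver, edgeR called 0, with 0 higher and 0 lower at an unadjusted p under 0.05, DESeq2 called 0 higher and 0 lower, and limma on log2 FPKM 0 and 0. Their median was −0.06 on the TMM scale and 0.10 when scaled by library size alone. Mup20 was at 4837, 9152, 8831, 5652 and 5462 CPM in V1 to V5 and 6929, 3103, 4832, 3871 and 6675 CPM in H1 to H5 (log2 fold change −0.42, edgeR adjusted p 0.290), with wide and overlapping ranges in both groups. These genes are near-identical copies, and values of single members are uncertain.

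Genes for signals that liver sends to other organs were called in both directions. Of 22 genes tested, 4 were higher and 4 lower (median 0.18). That is 18.2% each way, against 12.7% higher and 10.5% lower over all genes tested. Without H1, 5 were higher and 6 lower, and the higher ones numbered 2 without V2, H3 or H5 to 5 without H4 when another library was left out, with 1 to 2 lower. Fgl1, a ligand of the T cell receptor LAG-3, was at 865, 514, 631, 413 and 588 CPM in V1 to V5 and 436, 3222, 2170.1, 1309.8 and 1749.7 CPM in H1 to H5 (log2 fold change 1.56, SE 0.42, edgeR adjusted p 0.0244). Tsku, a secreted protein linked to energy expenditure, was at 82.2, 97.5, 139, 142 and 129 CPM in V1 to V5 and 98.7, 223, 359, 329.5 and 348 CPM in H1 to H5 (log2 fold change 1.20, SE 0.31, edgeR adjusted p 0.0213). In both, H2 to H5 were above the vehicle range and H1 was not. Lect2, a leukocyte chemotactic hepatokine, was at 94.5, 80.4, 72.1, 71.5 and 91.2 CPM in V1 to V5 and 46.8, 20.4, 30.1, 42.5 and 33.4 CPM in H1 to H5 (log2 fold change −1.24, SE 0.20, edgeR adjusted p 0.00444) and did not overlap between groups. Calls were lost for Fgl1 without V2, V3, V4, V5, H2, H3 or H5 (adjusted p 0.0509 to 0.0623) and for Tsku without V2, H3 or H5 (adjusted p 0.0540 to 0.0554). Inhbe, the activin E gene, was not called (log2 fold change 0.64, edgeR adjusted p 0.0774).

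Among transcription factors of liver, Hnf4a fell and the clock receptor gene Rora rose. Rora, which encodes a nuclear receptor that activates the clock gene Arntl, was at 48.2, 40.9, 46.1, 33.4 and 42.4 CPM in V1 to V5 and 60.4, 86.6, 110.04, 75.7 and 116 CPM in H1 to H5 (log2 fold change 1.09, SE 0.18, edgeR adjusted p 0.00483), with every treated library above every vehicle library. Hnf4a, the main regulator of hepatocyte identity, was at 926, 967, 1061, 690.4 and 829 CPM in V1 to V5 and 635, 584, 369, 711 and 431 CPM in H1 to H5 (log2 fold change −0.71, SE 0.20, edgeR adjusted p 0.0269). The groups overlapped through H4, and the call was lost without V1, V2, V3, H3 or H5 (adjusted p 0.0533 to 0.0689). Onecut2 fell by 0.51 (adjusted p 0.0336) and lost its call without V1, V2, V3, H3, H4 or H5 (adjusted p 0.0626 to 0.0868). Cebpa was not called (log2 fold change −0.30, edgeR adjusted p 0.290).

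Of 31 liver transcription factors 5 were called, all lower (median −0.10), 10 lower without H1 and 1 without V2, V3, H3 or H5 to 4 without V4, V5 or H2 when another library was left out. With library size alone the median was 0.04, with 3 higher and 2 lower. Of 19 clock genes 1 was called, Rora, and 2 higher and 2 lower were called without H1. The share called higher was 5.3%, against 12.7% over all genes tested. Arntl was at 7.604, 3.56, 3.45, 2.88 and 3.28 CPM in V1 to V5 and 2.98, 22.1, 6.83, 4.01 and 3.69 CPM in H1 to H5 (log2 fold change 0.94, edgeR adjusted p 0.216) and Dbp at 34.1, 76.2, 45.8, 67.6 and 52.8 CPM in V1 to V5 and 69.9, 9.02, 88.8, 103 and 97.6 CPM in H1 to H5 (log2 fold change 0.41, edgeR adjusted p 0.547). In both genes H2 lay far from the other 9 libraries, high in Arntl and low in Dbp. The labels give no time of day at which tissue was taken.

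**Figure D3:**
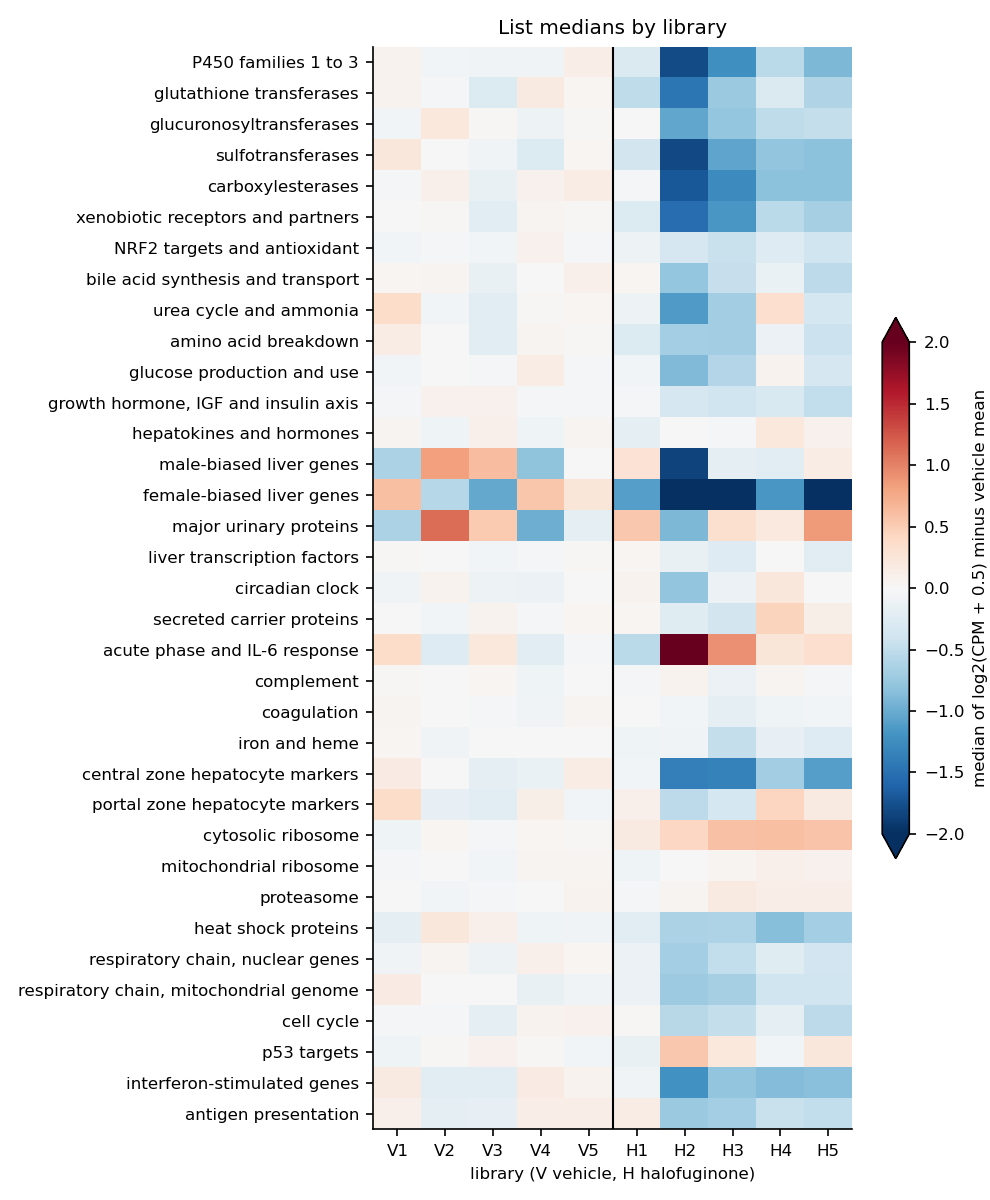
For each gene, log2(CPM + 0.5) in every library minus its vehicle mean, shown as the median over the tested genes of each of 35 lists. Blue is lower, red higher, and the colour scale is capped at 2 either way. H1 is near the vehicle libraries in most rows, H2 has the deepest blue in the drug metabolism rows and the deepest red in the acute phase row.

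Plasma proteins of the acute phase, which hepatocytes make in response to interleukin-6, were higher in some treated livers. Of 28 genes tested, 8 were higher and 2 lower (median 0.83), with 15 higher without H1 and 1 without V2 or V4 to 6 without H4 or H5 when another library was left out. The list median relative to vehicle was −0.54 in H1, 2.17 in H2, 0.92 in H3, 0.24 in H4 and 0.34 in H5, so H2 and H3 carried most of it. Apcs (ENSMUSG00000026542), the serum amyloid P component, was at 140.2, 112, 105, 96.8 and 113 CPM in V1 to V5 and 100.79, 3017, 2001, 1449 and 1661 CPM in H1 to H5 (log2 fold change 3.86, SE 0.63, edgeR adjusted p 0.00504). H2 to H5 were all more than 10 times the vehicle values, and H1 was within them.

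Lcn2, the iron-scavenging lipocalin-2, was at 134, 26.7, 50.8, 37.1 and 50.4 CPM in V1 to V5 and 20.2, 2987, 799, 121 and 183 CPM in H1 to H5 (log2 fold change 3.78, edgeR adjusted p 0.0319). Orm2, an α1-acid glycoprotein, was at 63.6, 17.4, 43.5, 30.2 and 25.4 CPM in V1 to V5 and 22.7, 1779, 669, 42.7 and 43.4 CPM in H1 to H5 (log2 fold change 3.83, edgeR adjusted p 0.0333). In these 2 genes H2 was the highest library and H3 the next, while H4 and H5 were within or near the vehicle range. H1 was within that range for Orm2 and below it for Lcn2. Without H2 the log2 fold changes were 2.21 and 2.42, and the calls were lost without V2, V3, V4, V5, H2 or H3 (adjusted p 0.0621 to 0.0868) and without V1, V2, V3, V4, V5, H2 or H3 (adjusted p 0.0546 to 0.0891). Saa1, serum amyloid A, was at 353, 57.2, 224, 58.9 and 97.02 CPM in V1 to V5 and 38.3, 5794, 1037, 69.2 and 37.3 CPM in H1 to H5 and was not called (log2 fold change 3.14, edgeR adjusted p 0.105, and 3.42 with an adjusted p of 0.0439 without H1). Il6ra, the receptor subunit for interleukin-6, was lower, at 91.1, 60.2, 59.8, 59.6 and 85.6 CPM in V1 to V5 and 59.7, 20.7, 25.1, 45.1 and 38.1 CPM in H1 to H5 (log2 fold change −0.92, SE 0.27, edgeR adjusted p 0.0312), with H1 touching the vehicle range. Its call was lost without V1, V2, V5, H2, H3 or H5 (adjusted p 0.0514 to 0.0782).

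**Figure D4:**
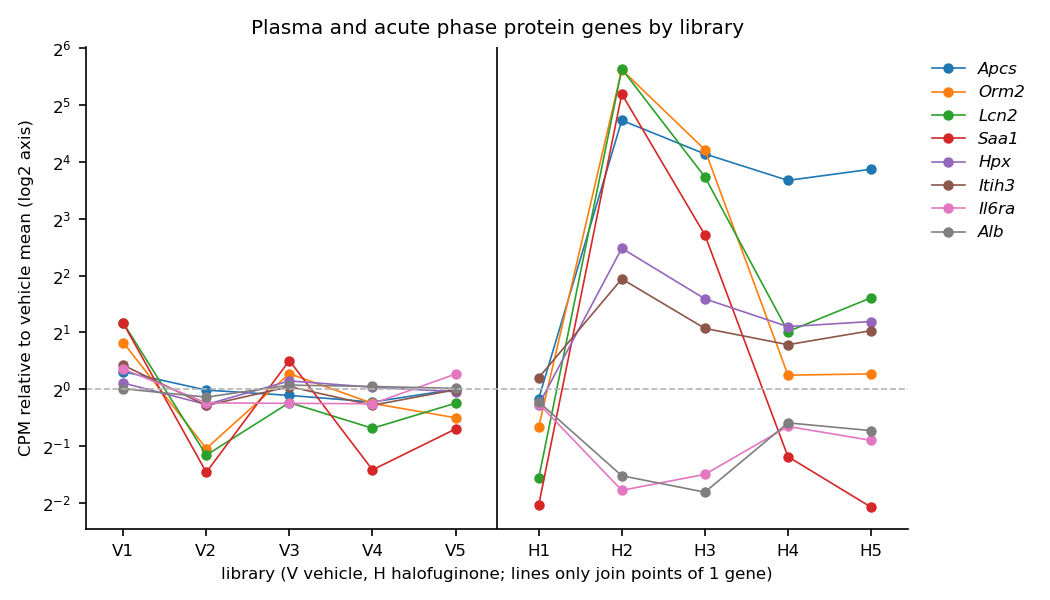
CPM of 8 plasma protein and acute phase genes in each library, relative to the vehicle mean of the gene, on a log2 axis; lines only join the points of 1 gene. Apcs is high in H2 to H5, whereas Lcn2, Orm2 and Saa1 are highest in H2 and H3.

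Carrier and complement genes were called in both directions, in shares close to those over all genes tested (12.7% higher, 10.5% lower). Of the carriers 14.8% were higher and 7.4% lower, and of the complement genes 8.3% each way. Hpx, which binds free heme, was at 4059, 3120.2, 4162, 3852 and 3646 CPM in V1 to V5 and 3106, 21021, 11333, 8074 and 8595 CPM in H1 to H5 (log2 fold change 1.47, SE 0.40, edgeR adjusted p 0.0247). Itih3, which links hyaluronan chains, was at 1046, 639, 804, 641 and 774 CPM in V1 to V5 and 897, 2996, 1638, 1342 and 1594 CPM in H1 to H5 (log2 fold change 1.12, SE 0.29, edgeR adjusted p 0.0212). H2 to H5 exceeded the vehicle range in both. Ttr, the carrier of thyroxine and retinol-binding protein, was at 3789.7, 3600.2, 3909.6, 4423 and 4160.4 CPM in V1 to V5 and 3032, 867, 1110.0, 2197 and 1644 CPM in H1 to H5 (log2 fold change −1.17, SE 0.30, edgeR adjusted p 0.0217) and was lower in every treated library. The calls were lost without V2, V4, V5 or H3 (adjusted p 0.0526 to 0.0634) for Hpx, without V2 or V4 (adjusted p 0.0511 to 0.0568) for Itih3 and without H3 or H5 (adjusted p 0.0552 to 0.0562) for Ttr. Of 27 carriers 4 were higher and 2 lower (median −0.03), with 8 and 7 without H1. Higher ones numbered 1 without V2 or V4 to 4 without V1 or H2 when another library was left out, and lower ones 0 without H3 or H5 to 2 without H4 when another library was left out; the median was 0.13 with library size alone.

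Among 24 complement genes 2 were higher and 2 lower, and without H1 4 and 6. The count of higher genes was 0 without V2, V4, H3 or H5 to 1 when another library was left out. C3, the central complement protein, was at 11134, 7905, 9525, 8321 and 9311 CPM in V1 to V5 and 8592, 32329, 19544, 18106 and 15272 CPM in H1 to H5 (log2 fold change 1.02, edgeR adjusted p 0.0361), and C4bp, an inhibitor of the classical pathway, had log2 fold change 1.04, edgeR adjusted p 0.0230. H2 to H5 lay above the vehicle range in both. C1s1, a protease that starts that pathway, was at 525, 525, 502, 511 and 528 CPM in V1 to V5 and 457, 294, 199, 266 and 254 CPM in H1 to H5 (log2 fold change −0.82, SE 0.19, edgeR adjusted p 0.0160), lower in all treated libraries. The call of C3 was lost without any one library other than H1 (adjusted p 0.0552 to 0.0900) and that of C4bp without V2, V4, H3 or H5 (adjusted p 0.0520 to 0.0578). C9 was not called (log2 fold change −0.68, edgeR adjusted p 0.0761; −1.06 at 7.51e-05 without H1). Of 30 coagulation genes 0 were called by edgeR, with 3 higher and 7 lower at an unadjusted p under 0.05, DESeq2 called 2 higher and 6 lower, and limma on log2 FPKM 1 and 0. Without H1, 4 were higher and 11 lower, among them Serpinc1, the antithrombin gene, at −0.49 (−0.36 with H1).

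Heme synthesis and iron control gave both directions. Alas1 (ENSMUSG00000032786), the rate-limiting enzyme of heme synthesis, was at 408, 996, 841, 879.95 and 653 CPM in V1 to V5 and 172, 177, 91.3, 124 and 195 CPM in H1 to H5 (log2 fold change −2.31, SE 0.27, edgeR adjusted p 0.00147). All treated libraries, H1 included, lay under the lowest vehicle library, V1. Hamp, the gene of the iron-regulating hormone hepcidin, was at 762, 188, 301, 185 and 296 CPM in V1 to V5 and 386, 1484, 1174, 754 and 965 CPM in H1 to H5 (log2 fold change 1.46, SE 0.44, edgeR adjusted p 0.0354), with V1 as high as the lowest of H2 to H5. Id1, a target of the bone morphogenetic protein signal that also drives Hamp, was at 13.7, 5.01, 10.2, 6.12 and 7.54 CPM in V1 to V5 and 13.3, 23.7, 26.4, 24.5 and 32.3 CPM in H1 to H5 (log2 fold change 1.499, SE 0.28, edgeR adjusted p 0.00803), with H1 inside the vehicle range. Tfrc, the transferrin receptor, was at 33.4, 17.9, 17.7, 27.4 and 36.6 CPM in V1 to V5 and 22.7, 14.5, 8.91, 9.65 and 8.86 CPM in H1 to H5 (log2 fold change −1.05, SE 0.30, edgeR adjusted p 0.0305). The calls of Hamp and Tfrc were lost without V2, V3, V4, V5, H2, H3, H4 or H5 (adjusted p 0.0573 to 0.0873) and without V1, V4, V5, H3, H4 or H5 (adjusted p 0.0587 to 0.0777). Over 30 genes 7 were lower and 3 higher (median −0.20; 5 higher and 12 lower without H1). Lower genes numbered 4 without V4, V5, H3 or H5 to 6 without V3, H2 or H4 when another library was left out, and higher genes 1 to 3 without V1 when another library was left out.

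The proteins of the cytosolic ribosome moved together. Of 79 genes tested 67 were called, all of them higher under halofuginone, with a median of 0.48, and in 61 every treated library lay above every vehicle library, which held for 5.13% of all genes. The count of higher genes was 71 without H1 and 55 without H3 or H5 to 69 without H2 when another library was left out. Rpl13a (ENSMUSG00000074129) was at 201, 206, 207, 223 and 207 CPM in V1 to V5 and 272, 546, 616, 560.1 and 562 CPM in H1 to H5 (log2 fold change 1.29, SE 0.19, edgeR adjusted p 0.00374). Rpl3, one of the first proteins to join the large subunit, was at 157.78, 175, 142, 167 and 179 CPM in V1 to V5 and 178, 344, 375, 378 and 407 CPM in H1 to H5 (log2 fold change 1.03, SE 0.20, edgeR adjusted p 0.00803). H1 lay above the vehicle range in Rpl13a and within it in Rpl3, and H2 to H5 were high and close to each other in both. The changes were small but alike across the list, with 78 positive values of 79. Ribosomal protein genes have many processed pseudogenes, and the authors' counting may have moved reads between copies.

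The list medians by library were 0.17 in H1 and 0.42, 0.59, 0.60 and 0.56 in H2 to H5. In the mitochondrial ribosome 10 of 78 genes were higher and 5 lower (median 0.04), with 19 and 10 without H1. The shares were 12.8% and 6.4%, against 12.7% and 10.5% over all genes tested. Higher ones numbered 0 without H3 to 4 without V5 or H2 when another library was left out, and lower ones 0 without V2, V4, H3 or H5 to 5 without V3 when another library was left out. Of 38 proteasome genes 3 were higher (7.9%) and 2 lower (5.3%), both under the shares over all genes (median 0.08), with 10 and 5 without H1. Calls of higher genes were 0 to 3 without H2 when another library was left out. Under library size alone these 2 lists gave 19 and 10 called genes, all higher, with medians of 0.20 and 0.24.

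Chaperone genes of the heat shock response, which the factor HSF1 induces when unfolded proteins accumulate, were mostly lower. Of 19 tested, 10 were lower and 1, the mitochondrial chaperone gene Hspa9, was higher (median −0.63; 13 lower without H1 and 8 without V2 or H3 to 11 without V1 when another library was left out). The list also holds the mitochondrial chaperone genes Hspd1 (log2 fold change 0.28) and Hspe1 (0.45), which were not called. Hspa1b (ENSMUSG00000090877), the stress-inducible HSP70, was at 51.01, 126, 113, 62.9 and 42.1 CPM in V1 to V5 and 10.4, 12.3, 8.87, 8.26 and 10.7 CPM in H1 to H5 (log2 fold change −2.96, SE 0.31, edgeR adjusted p 6.02e-04). The 5 treated libraries were uniform and H1 did not differ from them, while the vehicle libraries ranged widely. Bag3, a partner of HSP70, was at 57.7, 70.7, 68.8, 56.6 and 61.3 CPM in V1 to V5 and 31.6, 34.9, 28.6, 25.7 and 25.9 CPM in H1 to H5 (log2 fold change −1.10, SE 0.11, edgeR adjusted p 6.02e-04). Dnaja1, an HSP40, was at 454, 467, 424, 361 and 409 CPM in V1 to V5 and 271, 157.91, 175, 154 and 181 CPM in H1 to H5 (log2 fold change −1.17, SE 0.17, edgeR adjusted p 0.00317). In both, the groups did not overlap. Hspa1b and its neighbour Hspa1a are near-identical in sequence. RefSeq promoters (GRCm38.p6, 250 bases before to 50 after the start) of 15 of these genes were searched on both strands for the triplets TTC, GAA and TTC with any 2 bases between each, the layout of the element that HSF1 binds. A match was in a promoter of 4 genes (26.67%), 2 of the 9 called lower and 2 of the 6 not called, against 0.54% of 9709 tested genes, and none was in those of Hspa1b, Bag3 or Dnaja1. The 2 genes not called, Hspd1 and Hspe1, have promoters that overlap on opposite strands. Their matches are the same letters and not separate cases. Hsp90ab1 was not called (log2 fold change −0.42, edgeR adjusted p 0.0638).

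Subunits of the respiratory chain, the mitochondrial complexes that pass electrons to oxygen and make ATP, were lower. Of 74 nuclear genes tested 41 were called, all lower (median −0.37). The count of lower genes was 56 without H1, ran from 10 without H3 to 35 without H4 when another library was left out, and was 19 with library size alone. Ndufa3, of complex I, was at 16.1, 17.3, 13.5, 17.4 and 17.9 CPM in V1 to V5 and 13.1, 8.87, 9.37, 9.18 and 8.94 CPM in H1 to H5 (log2 fold change −0.73, SE 0.13, edgeR adjusted p 0.00633). Sdha, the flavoprotein of complex II, was at 426, 499.7, 439.6, 494 and 479 CPM in V1 to V5 and 359.998, 241, 247, 301 and 281 CPM in H1 to H5 (log2 fold change −0.71, SE 0.13, edgeR adjusted p 0.00768). Every treated library lay below the vehicle range in both genes, with H1 nearest to it. Ndufa9, also of complex I, was not called (log2 fold change −0.22, edgeR adjusted p 0.0957).

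The 13 respiratory genes of mitochondrial DNA all had negative log2 fold changes, of which 4 were called (median −0.45; 9 called without H1, and 0 without V1, V2, H3 or H5 to 2 without V4 when another library was left out). Of the called ones mt-Nd2, of complex I, was at 8318, 7329, 7804, 6472 and 7164 CPM in V1 to V5 and 7021, 3587, 3279, 4257 and 4430.1 CPM in H1 to H5 (log2 fold change −0.72, edgeR adjusted p 0.0388), and mt-Co2, of complex IV, had log2 fold change −0.52, edgeR adjusted p 0.0469. In mt-Nd2 H1 was the only treated library within the vehicle range. The call of mt-Nd2 was lost without any one library other than H1 (adjusted p 0.0592 to 0.0943), and that of mt-Co2 without any one library other than H1 (adjusted p 0.0655 to 0.113). mt-Co1 was not called (log2 fold change −0.34, edgeR adjusted p 0.241).

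**Figure D5:**
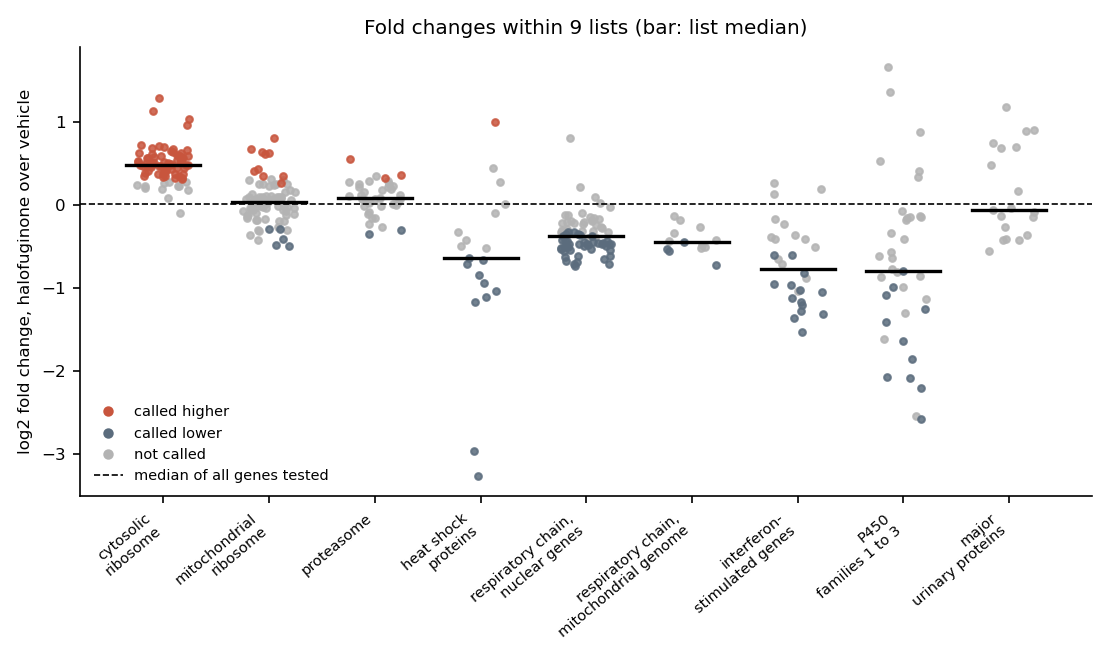
Log2 fold change of every tested gene in 9 lists (points, red called higher, grey-blue called lower, light grey not called), with the list median as a bar and the median over all genes as a dashed line. Cytosolic ribosome genes lie above the dashed line with 1 exception, mitochondrial ribosome and proteasome genes lie around it, and respiratory chain, heat shock and interferon genes lie mostly below.

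Among genes of the cell cycle, cyclin D1 had the largest fall. Ccnd1 (ENSMUSG00000070348), cyclin D1, which starts the cycle in response to growth factors, was at 41.9, 31.6, 40.3, 50.2 and 42.8 CPM in V1 to V5 and 12.7, 5.11, 8.87, 8.87 and 15.4 CPM in H1 to H5 (log2 fold change −2.02, SE 0.25, edgeR adjusted p 0.00173). All treated libraries were far below the vehicle range. Mcm7, a subunit of the replicative helicase, was at 8.71, 8.82, 10.4, 9.896 and 10.2 CPM in V1 to V5 and 13.5, 17.3, 17.4, 17.4 and 19.4 CPM in H1 to H5 (log2 fold change 0.82, SE 0.11, edgeR adjusted p 0.00284) and did not overlap either, in the other direction. Mki67, the proliferation marker, was at 1.58 to 2.39 CPM in vehicle and 0.232 to 2.33 CPM under halofuginone, with H1 in the vehicle range, and was not called (log2 fold change −1.03, edgeR adjusted p 0.0921; −1.54 at 0.00346 without H1). Of 22 genes 5 were lower and 1 higher (median −0.61; 11 lower without H1, and 3 to 4 without V3 when another library was left out).

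Of 15 targets of the tumour suppressor p53, 1 was higher and 1 lower, against 4 and 2 without H1. The share was 6.7% each way, against 12.7% higher and 10.5% lower over all genes tested. Trp53inp1, which promotes autophagy, was at 72.2, 32.3, 52.5, 43.7 and 58.7 CPM in V1 to V5 and 54.7, 233, 274, 171 and 219 CPM in H1 to H5 (log2 fold change 1.87, SE 0.36, edgeR adjusted p 0.00865), with H2 to H5 above the vehicle range and H1 in it. Fas, the death receptor, was at 17.7, 18.2, 18.97, 20.8 and 18.8 CPM in V1 to V5 and 12.3, 15.2, 9.48, 9.53 and 9.98 CPM in H1 to H5 (log2 fold change −0.74, SE 0.14, edgeR adjusted p 0.00724), lower in all treated libraries. Cdkn1a, the inhibitor p21, was not called (log2 fold change 0.47, edgeR adjusted p 0.578).

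Interferon-stimulated genes, which type I interferons switch on through the transcription factor complex ISGF3 against viruses, were lower. Of 28 tested 14 were called, all lower (median −0.76). The count of lower genes was 23 without H1 and 8 without H3 to 12 without V2 when another library was left out. ISGF3 binds a repeat of the letters TTTC, so the promoters of 21 of these genes in the same RefSeq table were searched on both strands for 2 copies of TTTC with any 2 bases between them. It was found in a promoter of 14 of the 21 genes (66.67%), against 3.99% of the 9709, and for 6 of the 10 called lower and 8 of the 11 not called. A match is a description of the letters and not a bound site. The stretches of 120 bases from 160 to 41 bases before the start are shown for the 4 called genes with a match in that window that have different layouts, in the direction of transcription, with the matches in capitals (overlapping ones run together, and GAAA repeats are matches on the other strand).
Isg15: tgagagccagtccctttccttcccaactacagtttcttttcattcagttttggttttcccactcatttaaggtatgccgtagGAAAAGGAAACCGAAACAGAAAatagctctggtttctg
Ifit1: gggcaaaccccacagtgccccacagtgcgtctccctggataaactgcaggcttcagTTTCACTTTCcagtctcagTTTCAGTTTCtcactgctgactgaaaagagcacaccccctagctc
Ifit3: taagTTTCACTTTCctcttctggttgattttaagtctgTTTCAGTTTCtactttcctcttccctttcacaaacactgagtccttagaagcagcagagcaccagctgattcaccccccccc
Rsad2: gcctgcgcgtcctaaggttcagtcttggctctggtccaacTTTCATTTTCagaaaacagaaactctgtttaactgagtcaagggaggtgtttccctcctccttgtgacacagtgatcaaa
They lie at chr4:156200859-156200978, minus strand; chr19:34640729-34640848, plus strand; chr19:34583369-34583488, plus strand; and chr12:26456493-26456612, minus strand.

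Isg15 (ENSMUSG00000035692), a ubiquitin-like modifier with 3 overlapping matches in its stretch, was at 7.802, 5.86, 5.22, 6.68 and 6.42 CPM in V1 to V5 and 4.02, 2.57, 2.58, 3.16 and 3.4998 CPM in H1 to H5 (log2 fold change −1.02, SE 0.16, edgeR adjusted p 0.00444). All treated libraries, H1 included, lay below all vehicle libraries. Ifit3 and Ifit1 encode proteins that bind viral RNA, and have 2 matches each. Ifit3 was at 21.4, 17.8, 13.1, 20.8 and 18.5 CPM in V1 to V5 and 13.7, 4.32, 5.12, 6.33 and 6.52 CPM in H1 to H5 (log2 fold change −1.36, SE 0.28, edgeR adjusted p 0.0104). Ifit1 was at 13.7, 8.01, 8.02, 10.3 and 13.04 CPM in V1 to V5 and 9.04, 2.68, 3.61, 3.704 and 3.13 CPM in H1 to H5 (log2 fold change −1.28, SE 0.32, edgeR adjusted p 0.0188). In these 2 genes H1 lay within the vehicle range and H2 to H5 below it. Rsad2, the antiviral enzyme viperin with 1 match, was at 19.9995, 14.1, 10.2, 15.9 and 15.2 CPM in V1 to V5 and 10.03, 3.32, 6.98, 7.64 and 5.88 CPM in H1 to H5 (log2 fold change −1.16, edgeR adjusted p 0.0128), and was named for its promoter after its values were seen. Cxcl10, a T cell chemokine with 1 match further from the start (at −213), was at 4.59, 4.16, 4.66, 6.39 and 5.74 CPM in V1 to V5 and 4.92, 1.16, 1.72, 1.81 and 0.894 CPM in H1 to H5 (log2 fold change −1.31, edgeR adjusted p 0.0326), and Irf7, the factor that amplifies interferon production, had log2 fold change −0.82, edgeR adjusted p 0.0317. Calls were lost for Ifit1 without H3 (adjusted p 0.0528), for Cxcl10 without any one library other than H1 (adjusted p 0.0538 to 0.0811) and for Irf7 without V1, V2, V3, V4, V5, H3, H4 or H5 (adjusted p 0.0504 to 0.0759).

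Genes that present antigen gave 2 lower and 1 higher of 16 (median −0.44), with 9 lower without H1 and 0 to 1 without V2, V3, H2 or H4 when another library was left out. These shares, 12.5% lower and 6.2% higher, stand beside 10.5% and 12.7% over all genes tested. H2-Eb1, a class II chain of antigen-presenting cells, was at 34.5, 26.7, 27.5, 37.8 and 38.3 CPM in V1 to V5 and 34.7, 7.46, 9.62, 11.4 and 9.01 CPM in H1 to H5 (log2 fold change −1.20, edgeR adjusted p 0.0415, and −1.83 without H1), and B2m, the light chain of class I, had log2 fold change −0.53, edgeR adjusted p 0.0268. H1 was within the vehicle range in H2-Eb1. Tap2, a subunit of the peptide transporter, was the higher one (log2 fold change 0.50, edgeR adjusted p 0.0321). The calls were lost without any one library other than H1 (adjusted p 0.0622 to 0.101), without V1, V4, V5, H3 or H5 (adjusted p 0.0556 to 0.0733) and without V2, V3, V4, V5, H2, H4 or H5 (adjusted p 0.0507 to 0.0786). Cd74, the class II invariant chain, was not called (log2 fold change −0.88, edgeR adjusted p 0.0710; −1.41 at 4.22e-05 without H1).

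Markers of other cell types moved to different extents beside these results, and their part in them was not tested. Of 14 Kupffer cell markers 1 was called, Cd163, which was higher (0 higher without V2, V5, H2, H3 or H5, and 3 lower without H1), and their summed level was 523 to 767 CPM in vehicle and 542 to 947 CPM under halofuginone. The 947 CPM was in H1, and H2 to H5 were at 542 to 617 CPM, within the vehicle range. Of 12 markers of recruited and lipid-associated macrophages 5 were called, all lower (8 lower without H1, and 1 without H3 or H5 to 6 without V1 when another library was left out), with summed levels of 91.3 to 145 and 60.5 to 109 CPM. Gpnmb, a lysosomal protein of such macrophages, was at 11.6, 21.6, 19.995, 32.002 and 12.2 CPM in V1 to V5 and 14.01, 8.83, 6.37, 8.26 and 7.22 CPM in H1 to H5 (log2 fold change −1.13, edgeR adjusted p 0.0228), and the groups overlapped. Trem2, their defining receptor, was not called (log2 fold change −0.67, edgeR adjusted p 0.0582). Of 9 lymphocyte markers tested 0 were called by edgeR, with 0 higher and 1 lower at an unadjusted p under 0.05, DESeq2 called 0 higher and 0 lower, and limma on log2 FPKM 0 and 0, and 2 were lower without H1 (summed 16.8 to 72.2 and 16.6 to 41.3 CPM).

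Of 12 stellate cell markers 3 were called, Acta2, Pdgfrb and Reln, all lower (1 lower without H3, and 0 with limma on log2 FPKM), and Lrat, their retinol-storing enzyme, was not called (log2 fold change −0.18, edgeR adjusted p 0.334). The list summed to 360.4 to 486 CPM in vehicle and 299 to 428 CPM under halofuginone. Sinusoidal endothelial markers gave 3 higher and 3 lower of 12, with 1 higher without V1, V2, V3, H2, H3 or H5 (summed 467 to 535 and 482 to 595 CPM). The 595 CPM was in H1, and H2 to H5 were at 482 to 513 CPM, within the vehicle range. The 6 adipocyte markers summed to 22.9 to 46.5 CPM in vehicle and 4.92 to 8.37 CPM under halofuginone, with Lep at 0 in all 10 libraries, and both tested ones, Fabp4 and Cfd, were lower. Erythrocyte markers summed to 135 to 249.03 and 72.3 to 138 CPM, with 1 of 5 lower, Alas2. Skeletal muscle markers summed to 0.149 to 0.652 and 0.410 to 0.646 CPM, exocrine pancreas markers to 4.37 to 7.55 and 2.98 to 9.19 CPM with Cpa1 and Cel at 0, and bile duct markers to 5.78 to 7.504 and 3.53 to 10.1 CPM.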

How the data were processed

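RNA of 5 vehicle and 5 halofuginone liver libraries was read from whole-number counts per gene that the authors deposited, with FPKM values per gene (named so per the file headers, scaled by gene length and library depth) used only in an alternative. The submitters' processing notes name fastp 0.18.0, Bowtie2 2.2.8, HISAT2, StringTie 1.3.1, RSEM and the build mm39, without roles. All count columns matched a liver sample (0 did not).

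Counts were filtered with filterByExpr, TMM-scaled and tested with edgeR 4.0.16 (R 4.3.3) without covariates or blocks. Fold changes are log2, halofuginone over vehicle, with SE from the quasi-likelihood F. Groups came from the labels. No 2 libraries agreed within sampling noise (smallest chi-square per degree of freedom 29.7). Tested on simulated counts for 12145 genes of this comparison, the fit recovered 20% of genes changed 1.5-fold, 72% at 2-fold, 100% at 4-fold and 98% at 8-fold, with 8 false calls of 153. The simulation changed 50 genes at each fold and set no library apart as H1 was. Its rates may therefore not hold for the 2850 calls here.

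The comparison, lists and tests were chosen with earlier results of these data known. Named were the 12 largest rises and the 12 largest falls outside the listed amino acid response, collagen and lipid genes. They were taken from called genes whose groups did not overlap and whose higher mean was 5 CPM or more. Also named were the 3 largest called changes of each list, and each list's anchor genes, called or not. Genes named beyond this rule, including single members of small counts and of cell type lists, were chosen after their values were seen. Alternatives were other scalings and filters, DESeq2 1.42.0, limma 3.58.1 on log2 of the deposited FPKM plus 1 or 0.1, a replicate block, adjusted p under 0.01 and leaving out each library. Promoters came from RefSeq (GRCm38.p6) and were searched for 7 motifs, of which 2 are described. White adipose tissue was left out, and some genes that the rule names are not reported here.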

Additional observations from a re-analysis of the deposited data

Results flagged for a closer look

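For each gene named in the text, the highest and the lowest of the 5 libraries of a group were compared with the nearest other library of that group. In 41 of 280 groups of 5 values the gap was more than 0.71 of the whole range, Dixon's limit, which chance reaches in about 5 of 100 groups, or 14 here. H1 gave 30 of them.

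H1 lay above the other 4 treated libraries, with the next highest of them in brackets, for C9 at 461 CPM (next 202), Cd74 at 119.5 CPM (next 44.6), Ces1d at 441 CPM (next 40.97), Ces1g at 94.3 CPM (next 29.9), Cxcl10 at 4.92 CPM (next 1.81) and Cyp2c29 at 396 CPM (next 141). It did so too for Cyp7a1 at 61.3 CPM (next 17.8), Dnaja1 at 271 CPM (next 181), Fmo1 at 210.1 CPM (next 57.2), Gclc at 253 CPM (next 90.8), Gsta2 at 4.07 CPM (next 1.16) and Gsta4 at 19.4 CPM (next 5.67). It did so too for H2-Eb1 at 34.7 CPM (next 11.4), Ifit1 at 9.04 CPM (next 3.704), Ifit3 at 13.7 CPM (next 6.52), Mgst3 at 6.11 CPM (next 2.66), Ndufa3 at 13.1 CPM (next 9.37) and Nr1i3 at 147 CPM (next 34.9). It did so too for Nup62 at 11.6 CPM (next 7.01), Otc at 325 CPM (next 129), Serpinb1a at 4.82 CPM (next 0.394), Sult1d1 at 124 CPM (next 38.4), Tpm2 at 5.46 CPM (next 2.01) and Ugdh at 89.3 CPM (next 39.9). It lay below them, with the next lowest in brackets, for Arhgef2 at 6.66 CPM (next 47.2), C4bp at 506 CPM (next 1445), Eif3c at 126 CPM (next 323), Gtpbp2 at 19.3 CPM (next 68.4), Rpl13a at 272 CPM (next 546) and Rpl3 at 178 CPM (next 344). Of the genes with H1 high, all but C9, Cd74, Ces1d and Nr1i3 were called lower, and the 6 genes with H1 low were called higher.

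H2 lay above the rest of its group for Arntl at 22.1 CPM (next 6.83), Lcn2 at 2987 CPM (next 799), Saa1 at 5794 CPM (next 1037) and Slc22a27 at 2.31 CPM (next 1.08). H4 lay above the rest of its group for Cyp2b9 at 91.8 CPM (next 28.4). V1 lay above the rest of its group for Arntl at 7.604 CPM (next 3.56), Hamp at 762 CPM (next 301) and Lcn2 at 134 CPM (next 50.8). V4 lay above the rest of its group for Gsta1 at 3.44 CPM (next 1.302) and Gsta2 at 16.6 CPM (next 6.81). V5 lay above the rest of its group for Ghr at 376 CPM (next 347).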

How the results depend on the processing

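The number of genes called moved with the libraries used. Leaving out 1 library gave 1275 to 5312 calls in place of 2850, 696 to 2628 higher and 579 to 2684 lower, the lowest without H3 and the highest without H1. An adjusted p under 0.01 left 464 (221 higher, 243 lower). Without TMM factors, 2789 genes were higher and 838 lower. limma on log2 FPKM gave 2050 higher and 777 lower with a pseudocount of 1, 2037 and 776 with 0.1, and 2104 and 842 over the genes of the count filter. The remaining alternatives, apart from the block, stayed within 1.5 times of each count. Same-numbered replicates of the groups did not deviate together (correlations −0.05, −0.19, 0.09, 0.12 and −0.02), so the numbers were not used as pairs, and a replicate block gave 1901 calls, 890 higher and 1011 lower. No named gene changed sign in any alternative. Of 110 named genes called, 73 were called in all 10 fits without 1 library, and the number lost ran from 0 without H1 to 34 without H3. The block lost 16, library size alone 4, no filter 2, limma on FPKM 6 to 9, and DESeq2 and its size factors 0. Of 30 named genes that were not called, 15 were called without H1. Counts against the main direction of a list (2 higher in amino acid breakdown, 2 higher in the growth hormone axis, 2 lower in the acute phase, 1 higher in the glucuronosyltransferases, 1 higher in antigen presentation) fell by 1 without each of 5 to 8 of the 9 libraries other than H1. Library size alone moved these list counts by more than 1.5 times: antioxidant genes to 2 higher and 4 lower, bile acid genes to 4 and 4, amino acid breakdown to 13 lower, the growth hormone axis to 4 lower, carriers to 8 higher, complement to 5 higher and 1 lower, coagulation to 3 higher, iron and heme to 5 higher, mitochondrial DNA genes to 2 lower, the cell cycle to 2 higher and 3 lower, p53 targets to 3 higher, P450 genes to 3 higher, stellate markers to 1 lower and sinusoidal markers to 5 higher and 1 lower. Values near the level of 3 counts, such as Gsta1 under halofuginone, are limited by depth.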

Other observations

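Further families, which share some genes with the lists above, such as Aldh1a7 and Acta2, were looked at after the values had been seen. They are given as descriptions beside the shares over all genes (12.7% higher, 10.5% lower). Translation factors, which load and move the ribosome along mRNA, had mostly positive log2 fold changes. Of 54 initiation factor genes 17 were called higher and 1 lower (median 0.21; 26 and 2 without H1, and 9 higher without V2 or H3 to 13 without H2 when another library was left out), and of 8 elongation factor genes 3 were higher. Eif3c, a core subunit of the factor eIF3, was at 136, 122, 139, 132 and 135 CPM in V1 to V5 and 126, 323, 358, 356 and 348 CPM in H1 to H5 (log2 fold change 1.19, SE 0.24, edgeR adjusted p 0.00971). H2 to H5 were above the vehicle libraries and H1 was not. Eif3d, another eIF3 subunit, had log2 fold change 0.99, SE 0.20, edgeR adjusted p 0.00950, and Eef1b2, an exchange factor for elongation factor 1A, had log2 fold change 0.49, SE 0.11, edgeR adjusted p 0.0137 without overlap between groups. Eif2ak2, the double-stranded RNA sensor PKR and an interferon-induced gene, was the lower one (log2 fold change −0.63, SE 0.14, edgeR adjusted p 0.0135).

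Several genes of the cytoskeleton were lower. Of 9 tubulin genes 5 were called, all lower (median −0.54; 9 without H1, 2 without H3, H4 or H5, 3 without V3 or V5, and 3 when scaled by library size alone). Tubb2a, a β-tubulin, was at 50.1, 31.8, 81.6, 38.8 and 37.1 CPM in V1 to V5 and 23.1, 21.2, 12.9, 9.07 and 10.2 CPM in H1 to H5 (log2 fold change −1.65, SE 0.32, edgeR adjusted p 0.00866), with every treated library below every vehicle library. Of 14 tropomyosin, actin, myosin light chain and transgelin genes 6 were lower, and 3 without H3. Tagln, an actin-binding protein of smooth muscle and activated stellate cells, was at 5.19, 7.46, 6.11, 6.796 and 5.54 CPM in V1 to V5 and 2.73, 1.64, 1.29, 1.74 and 2.98 CPM in H1 to H5 (log2 fold change −1.59, SE 0.23, edgeR adjusted p 0.00326), and the groups did not overlap.

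Oxidoreductases other than the P450 genes were looked at in 2 families. The lower genes were 10 of 17 aldehyde dehydrogenases, with 2 higher, and 9 of 26 aldo-keto reductases and hydroxysteroid dehydrogenases (17 without H1, 3 without H3, H4 or H5 to 5 without V1, V3 or H2 when another library was left out, and 4 when scaled by library size alone). Hsd17b10, a mitochondrial dehydrogenase that is also a subunit of mitochondrial RNase P, was at 189.9, 212, 155, 184 and 199 CPM in V1 to V5 and 100.1, 47.4, 45.1, 77.7 and 60.5 CPM in H1 to H5 (log2 fold change −1.51, SE 0.21, edgeR adjusted p 0.00317). All its treated values, H1 included, lay below the vehicle range. Among 13 transporters of the Slc22a family 5 were lower and 1 higher, with 3 lower without H3 and 8 without H1. Among 19 nucleoporins 5 were higher and 1, Nup62 (−1.12), was lower, and without H1 9 were higher. Nup210, a membrane protein of the nuclear pore, had log2 fold change 1.26, SE 0.19, edgeR adjusted p 0.00374.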
